A study of Mus musculus with 24 samples.

Results

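The 43 genes described here act when a cell divides. They were chosen by name, as the mitotic kinases, kinetochore proteins, spindle motors and cytokinesis factors among the 20782 genes of a table of normalized read counts, and all 43 were found in it. RNA was sequenced from mouse dorsal root ganglia, the clusters beside the spinal cord where sensory neurons and their glia lie. There were 24 libraries in 8 groups of 3: embryonic lumbar ganglia at E12.5 and at E17.5, adult L4-5 ganglia after sham surgery or after a peripheral lesion, and adult lumbar ganglia that had been dissociated and plated. The cultures grew at low density on laminin in Neurobasal-A medium with B-27 and were collected after 6, 12, 24 or 36 h. Strain, sex and the time from lesion to collection were not among the labels used here, and these do not say whether the libraries of a group came from separate animals or cultures. If they did not, the p-values measure only technical spread.

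Entry into mitosis is driven by Cdk1 bound to cyclin B, and Aurora and Polo kinases then build the spindle. Kinetochores tie the chromosomes to it, a checkpoint holds the anaphase promoting complex until all are attached, and the central spindle sets where the cell is cut. The genes for this machinery are transcribed mainly in G2 and mitosis and are kept silent in resting cells by the DREAM complex, which reads a promoter element called CHR, often near CCAAT boxes bound by NF-Y. Sensory neurons are born from dividing precursors early in ganglion development and do not divide afterwards, while glia, endothelium, fibroblasts and macrophages can.

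These sequences are shown because the CHR element is a feature that the choice of genes by name did not use. RefSeq windows on GRCm38.p6, from 250 bases before to 50 after the start, were held for 36 of the 43 genes, in 39 windows. Ccna2, Cdc25c, Tpx2, Aurkb, Incenp, Spc24 and Kif20a had no entry. The letters TTTGAA or TTCGAA were taken as a CHR match and CCAAT as a CCAAT match, each on either strand. The TTCGAA form reads the same on both strands, and CHR and CCAAT letters can share bases at their ends. A CHR match lay in 32 of 39 windows (82.1%), against 15.6% of the 18618 windows of genes in the expression table. CCAAT letters lay in 29 windows (74.4%) against 37.5%, and both were present in 27 (69.2%) against 6.32%. These are matches of letters and not measured binding.

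The CHR matches gathered at the start itself and the CCAAT matches upstream of it. In the bin from the start to 24 bases after it, 38.5% of the windows of mitosis genes held a CHR match, against 1.16% of all windows. CCAAT was most frequent from 75 to 51 bases before the start, with 38.5% against 8.18%. The same search found CHR letters in 38 of 63 windows (60.3%) of a list of other mitosis genes, in 6 of 34 windows (17.6%) of DNA replication genes and in 0 of 7 windows of G1 cyclins and their kinases.

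**Figure D1:**
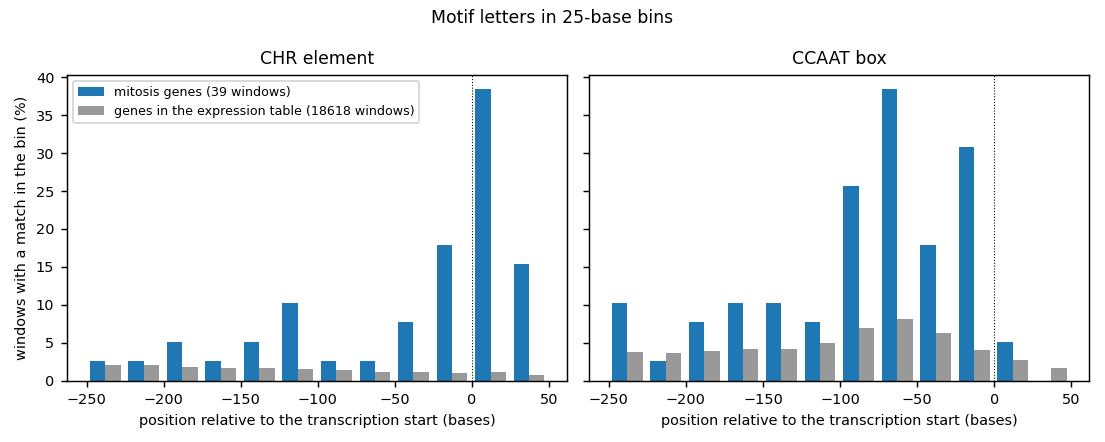
Share of promoter windows (%) with CHR letters (left) or CCAAT letters (right) in each 25-base bin, by position relative to the transcription start, for the 39 windows of mitosis genes (blue) and 18618 windows of genes in the expression table (grey). The blue CHR bar just after the start reaches 38.5%, and the tallest blue CCAAT bar, also 38.5%, lies 75 to 51 bases before it.

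The 150 bases before the start are printed for 6 genes with a CHR match in them and 2 without one. The bin where CHR matches were most frequent lies just after the start and is not printed. Genes were taken in order of their level at E12.5, and a window was passed over where over 30 of its printed bases lay in annotated exons. Each sequence reads 5′ to 3′ on the gene's strand and ends at the base before the start, and capitals mark CHR and CCAAT letters on either strand (TTCAAA and ATTGG are their reverse forms).
Mki67: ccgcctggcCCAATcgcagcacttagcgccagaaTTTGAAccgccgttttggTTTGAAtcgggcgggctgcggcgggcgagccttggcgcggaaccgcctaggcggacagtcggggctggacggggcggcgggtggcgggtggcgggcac
Top2a: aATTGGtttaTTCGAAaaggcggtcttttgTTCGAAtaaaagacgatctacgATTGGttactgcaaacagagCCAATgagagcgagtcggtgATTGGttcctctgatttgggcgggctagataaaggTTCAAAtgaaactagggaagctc
Kif11: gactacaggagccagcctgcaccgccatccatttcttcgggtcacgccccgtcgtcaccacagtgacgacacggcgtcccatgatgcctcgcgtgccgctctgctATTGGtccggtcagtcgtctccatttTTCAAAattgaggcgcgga
Ect2: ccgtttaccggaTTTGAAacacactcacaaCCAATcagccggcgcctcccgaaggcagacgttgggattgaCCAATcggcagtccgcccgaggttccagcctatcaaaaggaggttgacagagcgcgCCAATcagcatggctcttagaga
Cdc20: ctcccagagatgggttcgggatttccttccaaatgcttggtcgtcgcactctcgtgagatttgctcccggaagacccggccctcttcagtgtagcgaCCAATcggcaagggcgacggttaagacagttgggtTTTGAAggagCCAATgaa
Cdk1: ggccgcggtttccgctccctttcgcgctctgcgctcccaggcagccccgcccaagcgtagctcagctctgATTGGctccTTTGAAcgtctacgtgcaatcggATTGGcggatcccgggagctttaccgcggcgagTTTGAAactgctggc
Birc5: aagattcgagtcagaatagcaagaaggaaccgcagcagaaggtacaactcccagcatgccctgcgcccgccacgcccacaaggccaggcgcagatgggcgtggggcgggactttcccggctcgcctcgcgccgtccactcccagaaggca
Cenpe: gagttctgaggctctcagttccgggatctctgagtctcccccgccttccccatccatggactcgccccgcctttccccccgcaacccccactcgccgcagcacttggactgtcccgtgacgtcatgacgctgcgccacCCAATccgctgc
On GRCm38.p6 these lie at chr7:135716380-135716529 on the minus strand for Mki67, the proliferation marker, at chr11:99024190-99024339 (minus) for Top2a, the topoisomerase that untangles chromosomes, and at chr19:37376232-37376381 (plus) for Kif11, the motor that pushes spindle poles apart. They lie at chr3:27153855-27154004 (minus) for Ect2, the activator of RhoA at the cleavage furrow, at chr4:118437344-118437493 (minus) for Cdc20, which activates the anaphase promoting complex, and at chr10:69352913-69353062 (minus) for Cdk1. The pair without CHR letters lies at chr11:117849087-117849236 (plus) for Birc5, the passenger protein survivin, and at chr3:135212413-135212562 (plus) for Cenpe, a kinetochore motor. Top2a has 3 CHR matches and 4 CCAAT matches in this stretch, Mki67 has 2 and 1, and Cdk1 has 2 of each. Kif11 and Cdc20 carry a single CHR match, 19 to 14 and 18 to 13 bases before the start. Within the full windows Ccnb1, Nusap1, Mad2l1, Nuf2 and Kif18a also had no CHR match, which says only that these letters are not in these windows.

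Summed over the 43 genes, the mitosis transcripts were highest at E12.5, lower at E17.5 and lowest in the adult. The sums of normalized read counts were 48872, 44803 and 44778 at E12.5, 9106, 10919.9 and 8003 at E17.5, and 1429.8, 1399 and 1259 after sham surgery. All 3 groups were apart from each other. E17.5 was 4.94-fold below E12.5 and sham 33.9-fold below it. Lesioned ganglia gave 1559.6, 1685 and 1598, all above the sham libraries. A sum weighs high genes most, and the mean of Prc1 was 57.8 after sham surgery and 205 after lesion. That of Mki67 was 187 and 256. Of 31 genes tested in this pair, 17 changed upward, and the median change was 0.05 (log2). Cultures gave 1269, 1313 and 1523 at 6 h, 1508, 1312 and 1279 at 12 h, 1274, 1275 and 1511 at 24 h, and 1802, 1727 and 2303 at 36 h. The 36 h libraries were above all other adult libraries, 23.7-fold below E12.5. These sums are given without a test.

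**Figure D2:**
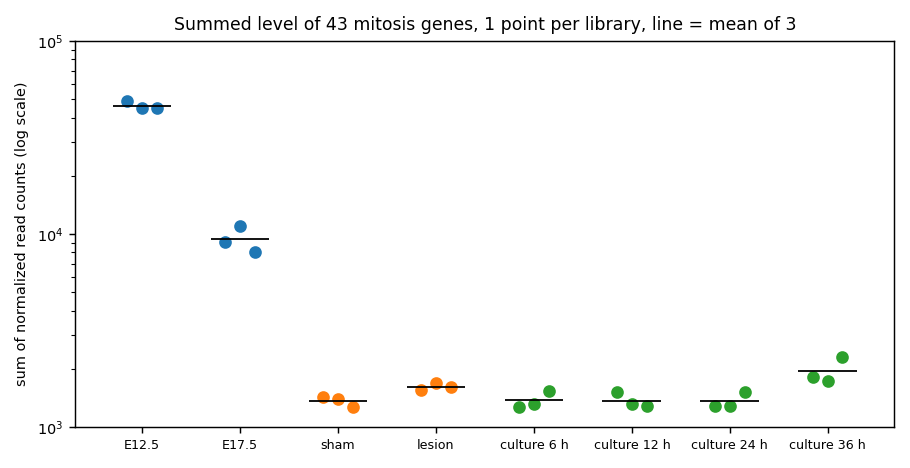
Sum of the normalized read counts of the 43 mitosis genes in each library (points, log scale) with the mean of 3 libraries (line), by group. The E12.5 libraries lie between 44778 and 48872, those at E17.5 between 8003 and 10919.9, and adult libraries between 1259 and 2303.

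Each of the 43 genes had its highest group mean at E12.5. As a share of that level, and leaving out Spc25, which has a doubtful value at E12.5, the median gene kept 20.7% at E17.5, from 11.7% (Psrc1) to 44.0% (Anln). It kept 2.85% after sham surgery, from 0.708% (Ccnb1) to 16.6% (Anln), and 2.71% after lesion, from 0.342% (Ttk) to 19.4% (Prc1). In culture the medians were 2.04%, 3.13%, 2.49% and 4.19% in order of time. Kif11 was the highest at 6 h (13.2%) and Psrc1 at 24 h (29.6%) and 36 h (38.2%). No gene was at 0 in all 3 libraries of a group, although up to 6 of the 43 were at 0 in single culture libraries. The shallow libraries gave few reads for the whole list, with 387 reads in replicate 1 at 12 h and 432 in replicate 3 at 6 h, against 62114 to 89030 at E12.5.

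**Figure D3:**
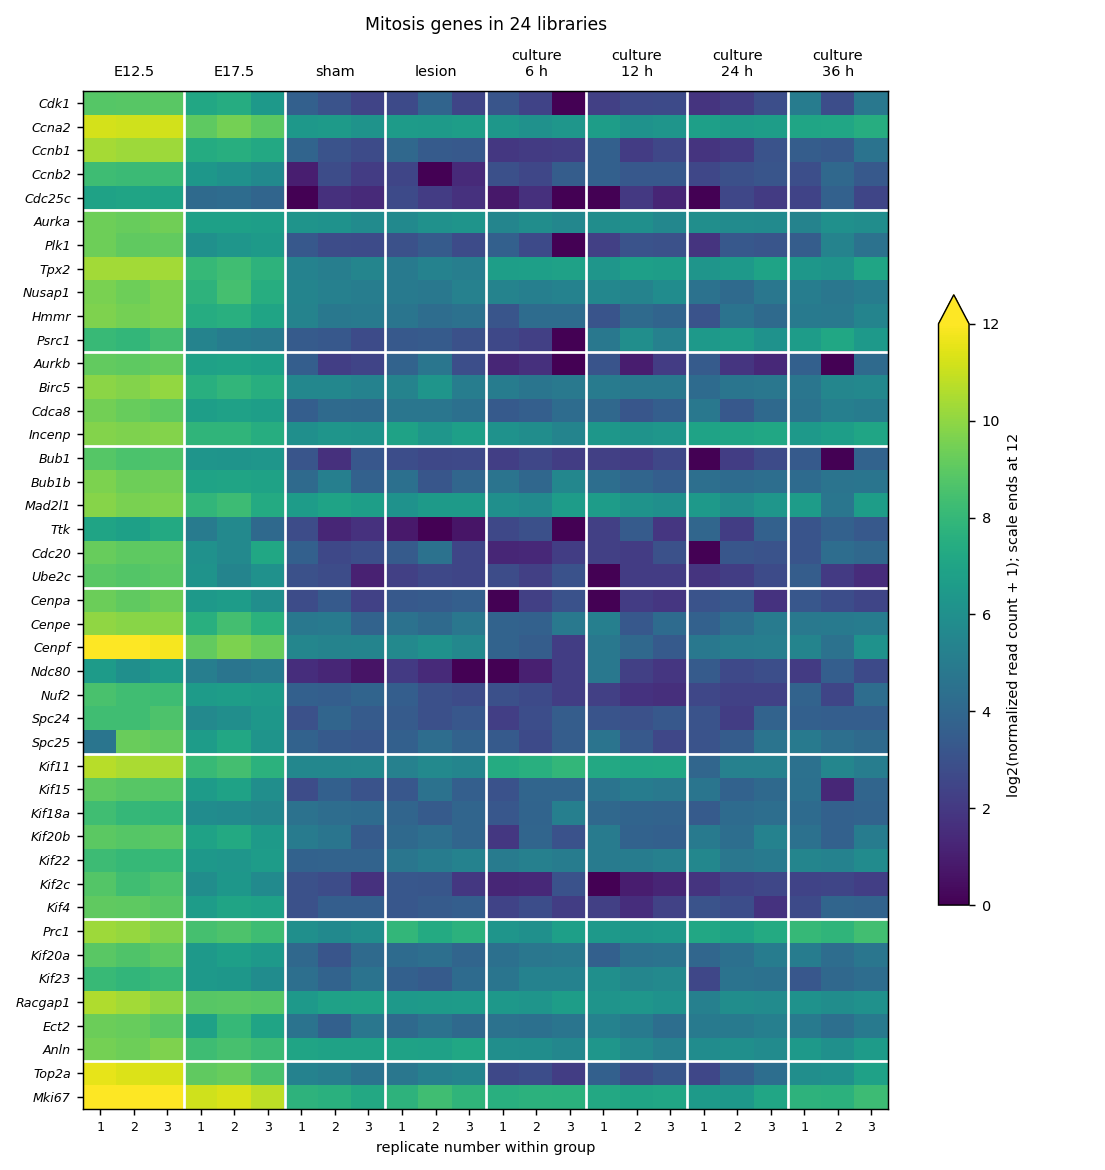
Level of each mitosis gene (rows, grouped by role from cyclins to Mki67) in each of 24 libraries (columns), as log2(normalized read count + 1). Colour runs from dark (0) to yellow (12 and above), and the E12.5 columns are the brightest in every row except for replicate 1 of Spc25.

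The libraries held 3.10 to 25.7 M reads, and 5 of them (E17.5 replicates 2 and 3, and 1 library each at 6, 12 and 24 h) had fewer than the 7.08 M of the next one. The labels call all samples DRG neuron, and all 10 neuron markers were detected in every group, with summed levels of 34094 to 51452 at E12.5, 116221 to 149938 at E17.5, 254627 to 271532 after sham surgery and 79094 to 150380.0 in culture. Markers of Schwann cells, satellite glia, fibroblasts, endothelium and macrophages were detected in all groups as well, with none of them at 0 in a whole group. So a level here belongs to a mixture of cells, and fewer cells of a type and less RNA per cell cannot be told apart. By the bracketed numbers in the sample titles, E17.5 runs on into the cultures. E12.5 falls between the 2 stretches of numbers of the operated ganglia, each of which holds sham and lesion libraries. The labels do not say what these numbers mean. E12.5 and E17.5, like sham and E17.5 or 6 h, lie in different stretches. In these pairs the group cannot be told apart from anything else that differs between the stretches. Pearson's r across genes on the log2 scale was 0.956 to 0.992 between libraries of a group. It was lowest between E17.5 replicates 2 and 3 (0.956). In 4 groups 1 library stood further from the other two than these from each other by more than 0.01: E12.5 replicate 3 (0.979 and 0.980, against 0.990), 6 h replicate 3 (0.973 and 0.975, against 0.987), 12 h replicate 1 (0.962 and 0.963, against 0.988) and 36 h replicate 2 (0.960 and 0.962, against 0.982). The counts of called mitosis genes given below were computed again without each library in turn, and their ranges are given with the dependence on processing.

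Between E12.5 and E17.5 the mitosis genes fell as a group. In limma's test on log2(value + 1), adjusted by Benjamini-Hochberg over 14550 genes with a threshold of 0.05, 42 of the 43 fell and 0 rose. Of all genes tested, 31.9% fell and 31.1% rose. The median change of the 43 was -2.27 (log2) against -0.05 over all genes, and in the same 42 genes every E17.5 library lay below every E12.5 library (35.5% of all genes). All 43 genes passed the filter on low values, with at least 10 normalized counts in every library of both ages.

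All 5 cyclins and Cdk1 regulators fell. Ccnb1, the cyclin B that carries Cdk1 into mitosis, had 1350.4, 1209 and 1228 normalized counts at E12.5 and 166, 183 and 153 at E17.5. The change was -2.91 ± 0.13 (log2 ± SE, adjusted p = 8.01e-07, limma). Cdk1 itself went from 462, 464 and 492 to 144, 169 and 85.6 (-1.88 ± 0.24, adjusted p = 0.000175, limma). The E12.5 and E17.5 libraries were apart for both genes. Ccna2 (-2.01), Ccnb2 (-2.15) and Cdc25c (-2.89) also fell. The last is the phosphatase that switches Cdk1 on, with 121, 129 and 125 at E12.5 and 16.6, 17.6 and 13.9 at E17.5.

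Among the kinases and factors of spindle assembly, all 6 fell, with a median of -2.41. Psrc1, a microtubule-binding protein of the spindle, had the largest fall of the 43, from 268, 248 and 342 to 40.7, 31.7 and 27.7 (-3.06 ± 0.22, adjusted p = 6.35e-06, limma). Plk1, the Polo kinase, went from 662, 542 and 557 to 64.7, 77.6 and 92.5 (-2.90 ± 0.18, adjusted p = 2.88e-06). Neither gene's groups overlapped. Aurka (-2.53), Tpx2 (-2.29), Hmmr (-2.27) and Nusap1 (-1.61) completed the set, where Aurka is the Aurora kinase of the spindle poles and Tpx2 its activator.

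The chromosomal passenger complex places the second Aurora kinase at centromeres and then at the central spindle. Its kinase Aurkb had 553, 524 and 576 at E12.5 and 115, 123 and 113 at E17.5 (-2.22 ± 0.13, adjusted p = 2.56e-06, limma). The other members moved by similar amounts, with Birc5 (-2.27), Cdca8 (-2.46) and Incenp (-2.03). All 6 genes of the checkpoint and of the anaphase promoting complex fell, with a median of -2.48. Ube2c, the ubiquitin-conjugating enzyme of that complex, had the second largest fall of the 43, from 487, 441 and 483 to 70.0, 42.3 and 67.1 (-2.99 ± 0.21, adjusted p = 6.18e-06). The checkpoint kinases and sensors fell by Bub1 (-2.45), Bub1b (-2.52), Ttk (-2.12) and Mad2l1 (-1.86) on the log2 scale, and Cdc20 went from 585, 514 and 511 to 66.5, 49.4 and 141, with replicate 3 at E17.5 the highest of its group.

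Of the 7 centromere and kinetochore genes 6 fell. Cenpa (-2.88), Cenpf (-2.76), Spc24 (-2.45), Cenpe (-2.02), Nuf2 (-1.76) and Ndc80 (-1.41) spanned a wide range from the centromeric histone Cenpa to Ndc80, a subunit of the complex that grips microtubules. Ndc80 was not called in a fit of all 24 libraries (adjusted p = 0.0679). Spc25, another subunit of the same complex, was not called. Its values at E12.5 were 24.2, 610.3 and 548, and at E17.5 98.8, 145 and 74.0, so the groups overlapped through 1 library (-0.98 ± 1.26, adjusted p = 0.526, limma). That value of 24.2 equals a trimmed mean of Spc25 over the 24 libraries (24.4) to within 1 read, and 48 genes had such values at E12.5 against 0 to 2 in each other group, so it was treated as doubtful. With it set to missing, an alternative added after seeing the data, Spc25 changed by -2.49 ± 0.28 (adjusted p = 1.34e-04) and 43 of 43 genes fell.

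All 7 mitotic kinesins, the motors that move spindle poles and chromosomes, fell with a median of -2.40. Kif11 had 1668, 1410.2 and 1447 at E12.5 and 272, 335 and 208 at E17.5 (-2.49 ± 0.18, adjusted p = 7.10e-06, limma), with no overlap. The others were Kif2c (-2.57), Kif15 (-2.43), Kif18a (-2.40), Kif4 (-2.16), Kif20b (-2.01) and Kif22 (-1.66). For Kif4 a pseudogene copy, Kif4-ps, is counted in the table at a mean of 30.6 at E12.5, so reads may have been split between the copies.

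The smallest falls were in the central spindle and cytokinesis group, whose median of -1.70 was the least of the roles. Anln, anillin, the scaffold of the contractile ring, had 726, 650.2 and 823 at E12.5 and 313, 367 and 287 at E17.5 (-1.18 ± 0.15, adjusted p = 0.000167, limma). Racgap1, a GTPase-activating subunit of centralspindlin, went from 1496, 1299 and 1009 to 477, 479.7 and 458 (-1.41 ± 0.16). The E12.5 and E17.5 libraries did not overlap for either. Prc1 (-1.57), Kif23 (-1.82), Ect2 (-1.85) and Kif20a (-2.29) made up the rest, where Prc1 bundles the microtubules of the central spindle. Kif20a shares 1271 exon bases (29.3%) with Cdc23 on the opposite strand, whose mean was 1801 at E12.5 and 894 at E17.5. Whether counting used strand is not given, so part of the level of Kif20a may be Cdc23 reads.

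Top2a had 3000.0, 2623 and 2471 at E12.5 and 537, 585 and 375 at E17.5 (-2.45 ± 0.18, adjusted p = 7.14e-06, limma). Mki67, which coats mitotic chromosomes, went from 13686, 12979.6 and 13131 to 2228, 2536 and 1797 (-2.61 ± 0.14, adjusted p = 1.74e-06) and made up 28.7% of the summed level at E12.5 and 23.4% at E17.5. Both were apart between the ages.

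Genes that work beside the 43 moved the same way. In a list of 72 other mitosis genes 68 fell and 0 rose (median -1.92), with Depdc1b (-3.42) and Cdca5 (-2.95), which protects sister chromatid cohesion, the largest. Of 36 DNA replication genes tested all fell (median -2.09), among them Gmnn (-3.35), the licensing inhibitor geminin, and Chaf1b (-3.16), a histone chaperone subunit. Neuron markers rose in 9 of 10 cases, Schwann cell markers in 7 of 8 tested and satellite glia markers in 6 of 8. Of 5 neural precursor markers tested Nes (-3.55) and Sox2 (-3.21) fell and Hes5 rose (2.16), with summed levels of 20751 to 38560 at E12.5 and 10000.2 to 12461 at E17.5 and none at 0 at E12.5. The part of this shift in cell types in the falls of the mitosis genes was not tested.

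**Figure D4:**
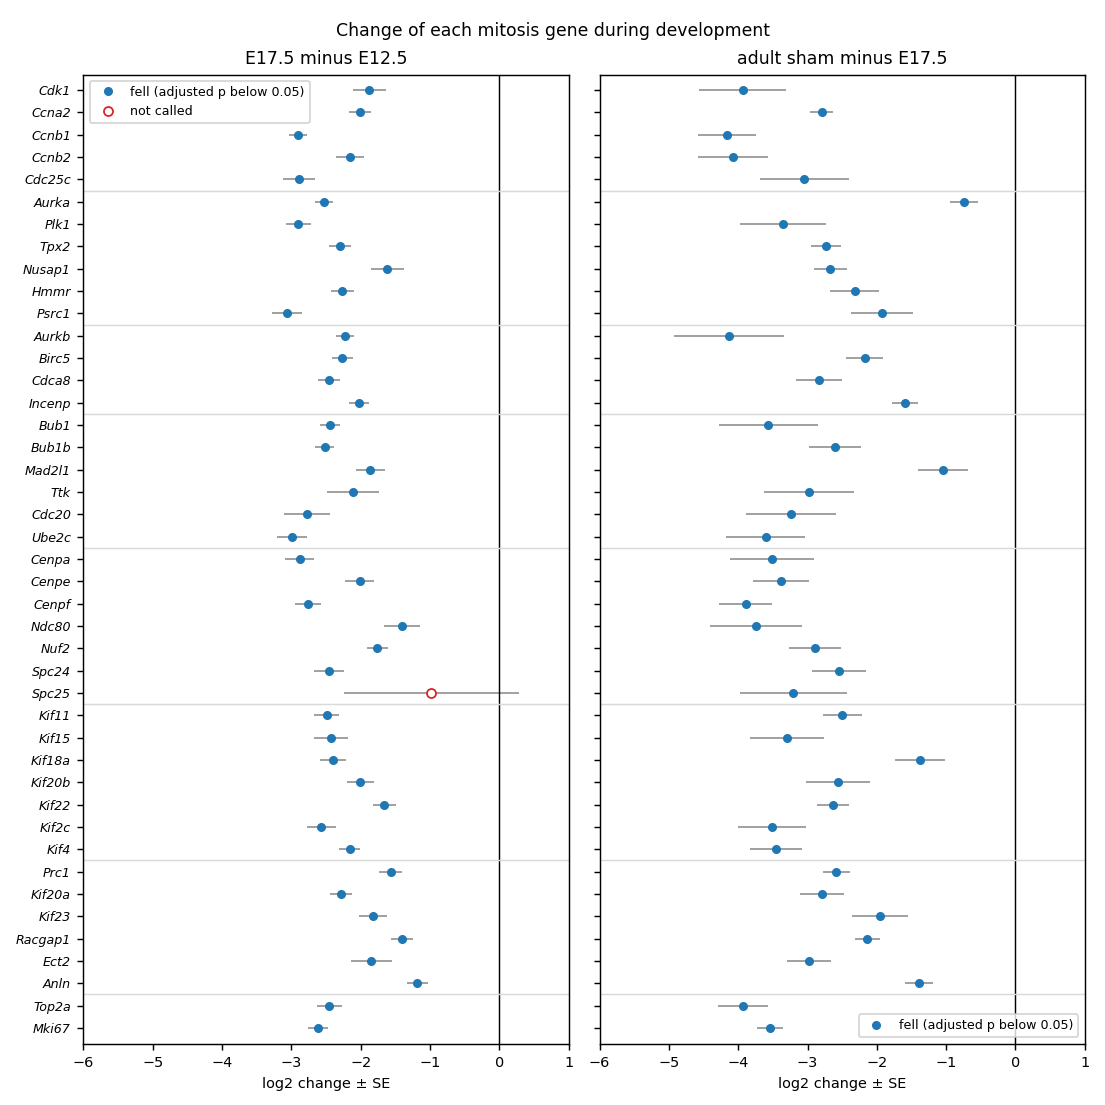
Change of each mitosis gene (log2, point ± SE) from E12.5 to E17.5 (left) and from E17.5 to adult sham ganglia (right), in order of role. Filled points passed the test and the open point did not. Spc25 (-0.98 ± 1.26) is the open point on the left, and on the right all 43 lie below 0, nearest Aurka (-0.74).

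From E17.5 to adult sham ganglia the mitosis genes fell further. This comparison was fitted on all 24 libraries, with a spread shared by all groups, which need not hold in each of them. All 43 genes fell, against 28.5% of all genes that fell and 28.1% that rose, with a median of -2.89 against -0.01 over all genes. Ccnb2, Cdc25c, Plk1, Psrc1, Bub1, Ttk, Ube2c, Cenpa, Ndc80 and Kif2c were below 10 in every sham library. They passed the filter only through groups where they were higher, so their falls are partly set by the filter. The count and the median include them. No sham library reached an E17.5 library for any of the 43 (33.4% of all genes lay lower without overlap). Mad2l1 was not called without sham replicate 1 (adjusted p = 0.0519) or without E17.5 replicate 2 (adjusted p = 0.0787). Cell type markers shifted as well. Fibroblast markers fell in 6 and rose in 1 of 8, and endothelial markers fell in 6 and rose in 0 of 8. Schwann cell markers rose in 7 and fell in 0 of 9, satellite glia markers rose in 5 and fell in 1 of 8, and neuron markers rose in 4 and fell in 1 of 10. The part of these cells in the falls of the mitosis genes was not tested.

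Cdk1 and its B cyclins were among the steepest drops, and Ccna2 (-2.79) fell by less than the median. Ccnb1 had 13.8, 7.31 and 5.73 after sham surgery (-4.16 ± 0.41, adjusted p = 1.13e-08, limma) and Cdk1 11.8, 7.31 and 4.59 (-3.94 ± 0.63, adjusted p = 1.17e-05). Aurkb had 10.8, 3.66 and 4.59 (-4.13 ± 0.79, adjusted p = 0.000108) and Ccnb2 0.984, 5.85 and 3.44 (-4.08 ± 0.51). Top2a had 38.4, 34.4 and 22.9 (-3.93 ± 0.36, adjusted p = 2.81e-09). These genes stood at low normalized counts in the adult, and folds at such levels are pulled toward 0 by the added 1. Plk1 had 8.86, 5.85 and 5.73 (-3.35 ± 0.62), and Mki67 217, 196 and 149 (-3.54 ± 0.19, adjusted p = 2.61e-13).

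Several genes kept more of their RNA. Aurka had 73.8, 68.0 and 54.5 after sham surgery and 111, 113 and 104 at E17.5 (-0.74 ± 0.20, adjusted p = 0.00262, limma), the smallest fall of the 43. Mad2l1, a checkpoint protein that holds Cdc20, had 97.4, 122 and 104 against 234, 296 and 162 (-1.05 ± 0.36, adjusted p = 0.016). Anln kept 127, 119 and 119 (-1.39 ± 0.21). All sham values stayed below those at E17.5 in these 3 genes. Kif18a (-1.37) and Incenp (-1.60) followed, where Kif18a is a motor that limits microtubule growth. The median of the cyclin and Cdk1 set was -3.94 and that of the cytokinesis set -2.36, and the cytokinesis set had the smallest median fall in this step as in the one before. In the list of other mitosis genes 59 of 72 fell and 2 rose, Bub3 (0.61), a checkpoint protein, and Zwint (0.39), an anchor of the kinetochore checkpoint.

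Compared per length (normalized counts per kb of summed exons), Mki67 was the highest at E12.5 with 1318, followed by Ccna2 with 562, while Ndc80 was the lowest with 12.4. The median gene had 124 at E12.5, 28.7 at E17.5 and 3.08 after sham surgery. The gene at the E12.5 median is Spc25, whose mean includes its doubtful value. Lengths sum all annotated exons of a gene, and which of them were in use was not examined, so ranks between genes are rough. After sham surgery Aurka led with 25.8, ahead of Ccna2 (19.9), Mki67 (18.6), Incenp (16.0), Racgap1 (15.2) and Anln (13.4). Ccnb1 (2.12), Cdk1 (1.60) and Ndc80 (0.206) were far below them. Ccna2 shares 510 exon bases (12.5% of its exons) with Exosc9 on the opposite strand, and whether counting used strand is not given, so part of its adult level may be Exosc9 reads. Exosc9 had a mean of 107 after sham surgery, above the level of Ccna2.

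After peripheral lesion, 3 mitosis genes rose and 0 fell. Of the 43, 31 passed the filter. Among all 14556 genes tested 20.9% rose and 20.2% fell. The median change of the 31 was 0.05 against -0.01 over all genes, and 6 lay higher without overlap and 4 lower (26.3% of all genes in each direction).

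Prc1 rose most. It had 247, 162 and 205 normalized counts after lesion and 62.0, 51.2 and 60.2 after sham surgery (1.79 ± 0.16, adjusted p = 2.99e-06, limma), with the lowest lesion library above every sham library. This returned it to 19.4% of its E12.5 level, from 5.48% after sham surgery. Its exons share 911 bases (11.1%) with Rccd1 on the opposite strand, whose mean was 52.3 after sham surgery and 43.8 after lesion. Kif22, a motor that pushes chromosome arms outward, had 25.5, 31.7 and 38.7 against 12.8, 13.2 and 13.2 (1.21 ± 0.26, adjusted p = 0.00211). Incenp, the scaffold of the passenger complex, had 118, 78.5 and 109.9 against 61.0, 74.6 and 71.7 (0.54 ± 0.17, adjusted p = 0.0238). Both were higher in every lesion library. Incenp was not called without lesion replicate 1 (adjusted p = 0.101), lesion replicate 3 (adjusted p = 0.0749) or sham replicate 1 (adjusted p = 0.101), nor in a fit of all 24 libraries (adjusted p = 0.0521).

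The genes most used as proliferation markers did not pass. Mki67 had 214, 322 and 232 after lesion and 217, 196 and 149 after sham surgery (0.44 ± 0.17, adjusted p = 0.0575, limma), so the groups overlapped. It was called by DESeq2 (adjusted p = 0.0314), and by limma with the stretch of title numbers as a covariate (adjusted p = 0.0348). Without lesion replicate 1 or sham replicate 1 limma called it as well (adjusted p = 0.0272 and 0.0423). Top2a had 26.3, 36.7 and 41.1 against 38.4, 34.4 and 22.9 (0.13 ± 0.25, adjusted p = 0.716). Aurkb, with 13.2, 25.0 and 6.36 against 10.8, 3.66 and 4.59, changed by 1.05 ± 0.50 (adjusted p = 0.107) and was called only without lesion replicate 3, at an adjusted p of 0.0295. Ccnb1, with 15.5, 10.0 and 9.25, differed from sham by 0.39 ± 0.39 (adjusted p = 0.448).

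The other tested genes were not called either. They changed by Ccna2 (0.25), Cdca8 (0.69), Birc5 (0.09), Cenpf (0.34), Spc25 (0.42) and Cdc20 (0.43) on the log2 scale and, among the motors and cytokinesis genes, Kif15 (0.62), Kif20a (0.36), Kif4 (0.05), Anln (0.04), Ect2 (-0.10), Kif11 (-0.12), Racgap1 (-0.20), Kif20b (-0.22), Kif23 (-0.49) and Kif18a (-0.57). Spindle, checkpoint and kinetochore genes gave Aurka (-0.04), Cenpe (-0.03), Tpx2 (-0.19), Nusap1 (-0.23), Mad2l1 (-0.35), Bub1b (-0.47), Hmmr (-0.56) and Nuf2 (-0.63). Cdk1, Ccnb2, Cdc25c, Plk1, Psrc1, Bub1, Ttk, Ube2c, Cenpa, Ndc80, Spc24 and Kif2c stayed under the filter in this pair of groups. Cdk1 had 5.42, 13.4 and 4.63 after lesion and 11.8, 7.31 and 4.59 after sham surgery, and Plk1 6.97, 10.0 and 5.78 and 8.86, 5.85 and 5.73. Neither was called when the filter was dropped. Ttk, with 0.774, 0 and 0.578 after lesion and 5.90, 1.46 and 2.29 after sham surgery, was then called as lower (-1.44, adjusted p = 0.0321, limma).

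Neighbouring lists gave the same picture of few calls. Of 52 other mitosis genes tested 3 rose and 5 fell (median 0.02), and of 30 DNA replication genes 0 rose and 3 fell (median -0.11), among them Fen1 (-0.48), the flap endonuclease, and Tk1 (-0.87), thymidine kinase. Macrophage markers rose in 9 of 10 cases, with summed levels of 1192 to 1363 after sham surgery and 2628 to 4089 after lesion and none at 0. Fibroblast markers rose in 6 of 8, with sums of 8144 to 10557 and 10609 to 12802, and satellite glia markers rose in 3 and fell in 2 of 8. The part of these cell types in the 3 rises was not tested.

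Between sham ganglia and 6 h in culture, most mitosis genes were not called, and the calls went in both directions. With all 24 libraries in the fit, 5 of 43 rose and 8 fell, against 23.3% of all genes that rose and 24.5% that fell. All 43 passed the filter in this fit, but some only with the other groups counted. On the sham and 6 h libraries alone Cdk1, Ccnb1, Ccnb2, Cdc25c, Plk1, Psrc1, Aurkb, Bub1, Ttk, Cdc20, Ube2c, Cenpa, Ndc80, Spc24, Spc25, Kif2c and Kif4 would stay under it. The counts and the median given here include these low genes. The median change was -0.32 against -0.06 over all genes, and 6 genes lay higher without overlap (29.1% of all genes) and 11 lower (33.6%). This comparison shares its sham libraries with the lesion comparison and with that against E17.5.

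The motors Kif11, Kif22 and Kif20a rose, with Tpx2 and Prc1. Kif11 had 166, 189.6 and 243 at 6 h and 46.2, 46.1 and 47.0 after sham surgery (2.06 ± 0.28, adjusted p = 2.25e-06, limma), which is 13.2% of its E12.5 level against 3.08%. Tpx2, which recruits Kif11 and Aurora A to spindle microtubules, had 106, 109 and 116 against 39.4, 33.6 and 43.6 (1.49 ± 0.22, adjusted p = 5.78e-06). Kif22 had 31.2, 36.8 and 31.7 against 12.8, 13.2 and 13.2 (1.28 ± 0.23, adjusted p = 8.85e-05). For all 3 every culture library lay above every sham library. Kif20a, a motor of the central spindle, had 20.3, 26.4 and 28.2 against 15.7, 8.04 and 16.6 (0.89 ± 0.32, adjusted p = 0.0251) and was not called without culture replicate 2 (adjusted p = 0.0628), culture replicate 3 (adjusted p = 0.0803) or sham replicate 2 (adjusted p = 0.171). It shares 1271 exon bases (29.3%) with Cdc23 on the opposite strand, whose mean was 383 after sham surgery and 331 at 6 h. Prc1 had 75.5, 64.3 and 109 (0.48 ± 0.20, adjusted p = 0.0449) and lost its call with edgeR (adjusted p = 0.0775) and DESeq2 (adjusted p = 0.108) and without single libraries, up to 0.288 without culture replicate 3 and 0.153 without sham replicate 2.

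The largest falls were in Top2a and Cenpf. Top2a had 5.08, 6.05 and 3.53 at 6 h against 38.4, 34.4 and 22.9 (-2.48 ± 0.36, adjusted p = 5.92e-06, limma), and Cenpf, a large kinetochore protein, 13.1, 10.4 and 3.53 against 44.3, 40.2 and 41.9 (-2.26 ± 0.38, adjusted p = 3.64e-05). Anln had 59.5, 58.8 and 45.8 against 127, 119 and 119 (-1.15 ± 0.21, adjusted p = 7.93e-05). None of these groups overlapped. Psrc1 (-1.53), Kif20b (-1.38), Ccnb1 (-1.15), Hmmr (-1.14) and Nuf2 (-1.12) also fell, from lower levels.

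Those 5 calls rested on single libraries, and Psrc1 was also not called by edgeR (adjusted p = 0.110) or DESeq2 (adjusted p = 0.110). Psrc1 and Ccnb1 did not pass the filter within the sham and culture libraries alone. Psrc1 lost its call without culture replicate 3 (adjusted p = 0.0878), and Ccnb1 without culture replicate 1 (adjusted p = 0.0653) or sham replicate 1 (adjusted p = 0.148). Hmmr lost it without the same libraries (adjusted p = 0.0844 and 0.0542), and Nuf2 without culture replicate 3 (adjusted p = 0.0841) or sham replicate 3 (adjusted p = 0.0612). Kif20b lost it without culture replicate 1 (adjusted p = 0.140), sham replicate 1 (adjusted p = 0.101) or sham replicate 2 (adjusted p = 0.0666).

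Mki67 had 190.2, 208 and 205 at 6 h, all within the range of the sham libraries (0.12 ± 0.19, adjusted p = 0.625, limma). Among the kinases, Cdk1 had 7.99, 4.40 and 0, Plk1 11.6, 5.50 and 0 and Aurkb 1.45, 2.20 and 0 (Cdk1 (-1.21), Plk1 (-0.82) and Aurkb (-1.76)), none of them called. The remaining genes without a call were Ccna2 (-0.12), Ccnb2 (1.03), Cdc25c (-0.22), Aurka (-0.41), Nusap1 (0.05), Birc5 (-0.61), Cdca8 (-0.19) and Incenp (-0.32) and, of checkpoint and kinetochore, Bub1 (-0.38), Bub1b (0.37), Mad2l1 (-0.65), Ttk (-0.09), Cdc20 (-1.43), Ube2c (0.40), Cenpa (-1.07), Cenpe (-0.37), Ndc80 (-0.09), Spc24 (-0.58) and Spc25 (-0.28). The motors and cytokinesis genes among them were Kif15 (0.45), Kif18a (-0.20), Kif2c (-0.59), Kif4 (-0.91), Kif23 (0.83), Racgap1 (-0.31) and Ect2 (0.21). Some of these were called under an alternative. Kif23 was called as higher by edgeR (adjusted p = 0.0303), by DESeq2 (adjusted p = 0.02995) and with only its own libraries in the fit (adjusted p = 0.0334). Cdc20 was called as lower by edgeR and DESeq2 (adjusted p = 0.0330 and 0.0129), Birc5 and Mad2l1 by DESeq2 (adjusted p = 0.0445 and 0.0487) and with their own libraries (adjusted p = 0.0416 and 0.0228), and Kif4 by edgeR (adjusted p = 0.0496). Without 1 library, limma called Cdk1 and Plk1 as lower (without culture replicate 1, adjusted p = 0.0251 and 0.0388), Cenpa as lower (without culture replicate 3, 0.0332), Kif4 as lower (without culture replicate 2 or sham replicate 1, 0.0420 and 0.0416) and Ccnb2 as higher (without sham replicate 2, 0.0411).

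Cell type markers shifted strongly between these groups. Schwann cell markers fell in 6 and rose in 2 of 9 (summed levels 79041 to 97115 after sham surgery and 29626 to 39009 at 6 h), fibroblast markers fell in 7 and rose in 1 of 8, and macrophage markers fell in 5 and rose in 1 of 10 (1192 to 1363 and 233 to 293). Endothelial markers rose in 4 of 8, from sums of 1329 to 1499.7 to 2799.7 to 3553. No marker of these 4 lists was at 0 in either group. Neuron markers fell in 7 and rose in 0 of 10, and satellite glia markers fell in 6 and rose in 0 of 8. Of 6 neural precursor markers tested 3 rose, among them Nes (3.44) and Sox2 (1.97), and 1 fell. The part of all these cell types in the changes of mitosis genes was not tested.

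Within culture, 32 of the 43 genes passed the filter, and 11 of them differed among the 4 times in limma's F test, against 45.7% of 15006 genes. Cdk1, Cdc25c, Aurkb, Bub1, Cdc20, Ube2c, Cenpa, Ndc80, Nuf2, Kif2c and Kif4 stayed below it. From 6 to 36 h, 10 genes rose and 2 fell, against 25.3% of all genes in each direction. The median change of the 32 was 0.49 against 0.02 over all genes, and 14 lay higher without overlap (29.8% of all genes) and 4 lower (29.2%).

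Psrc1 changed most. It had 5.08, 3.85 and 0 at 6 h, 27.3, 59.9 and 38.3 at 12 h, 86.1, 99.8 and 68.0 at 24 h and 98.1, 141 and 88.6 at 36 h. From 6 to 36 h the change was 5.13 ± 0.53 (adjusted p = 1.45e-06, limma), and the step from 6 to 12 h alone was 3.72 ± 0.53 (adjusted p = 0.000496). All later libraries lay above those at 6 h, and the 36 h level was 38.2% of that at E12.5.

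Prc1 rose over the same span, from 75.5, 64.3 and 109 at 6 h through 85.7, 79.4 and 86.8 and 145, 121 and 159.6 to 259.8, 228 and 326 at 36 h (1.72 ± 0.22, adjusted p = 9.97e-06, limma). Its rise in the 12 to 24 h interval (0.74 ± 0.22, adjusted p = 0.0362) passed the test, as did that in the last one (0.92 ± 0.22, adjusted p = 0.0337). The first step lost its call without 12 h replicate 2 or 3 or any 24 h library, up to an adjusted p of 0.128 (without 24 h replicate 1). The second lost it without any library of either of its groups, up to 0.146 (without 24 h replicate 2). Neither was called by limma without a filter (adjusted p = 0.0532 and 0.0571). Rccd1, which overlaps it, had means of 54.0 at 6 h and 68.3 at 36 h.

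Top2a and Mki67 rose late. Top2a had 11.7, 5.85 and 8.20 at 12 h, 4.92, 11.4 and 19.4 at 24 h and 60.4, 63.6 and 117 at 36 h. The last step was 2.76 ± 0.50 (adjusted p = 0.00938, limma) and the change from 6 h 3.75 ± 0.50 (adjusted p = 1.82e-05). Mki67 went down from 6 h to 148, 129.6 and 137 at 12 h and 93.5, 83.5 and 137 at 24 h, steps that were not called (-0.54 and -0.43), and rose to 212, 208 and 295 at 36 h (1.20 ± 0.20, adjusted p = 0.00615). Against 6 h its level at 36 h differed by 0.23 ± 0.20 (adjusted p = 0.364), with overlap. Top2a at 36 h was above all sham libraries and at 2.98% of its E12.5 level.

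Kif11 fell, from 166, 189.6 and 243 at 6 h and 152, 136 and 141 at 12 h to 14.8, 37.4 and 38.1 at 24 h and 21.6, 45.0 and 33.2 at 36 h. The step from 12 to 24 h was -2.33 ± 0.34 (adjusted p = 0.000475, limma) and the change from 6 to 36 h -2.59 ± 0.34 (adjusted p = 1.42e-05). At 24 and 36 h all 6 libraries were below the sham values of 46.2, 46.1 and 47.0. Kif23, the motor subunit of centralspindlin, also dropped after 12 h, with 24.0, 39.0 and 38.8, 62.3, 44.8 and 48.5, 4.92, 22.4 and 21.1 and 8.62, 15.5 and 18.5 in order of time. Unlike Kif11, it was higher at 12 h than at 6 h, without overlap, a step that was not called. Its step from 12 to 24 h (-1.85 ± 0.48, adjusted p = 0.0216) was not called without 12 h replicate 3 or 24 h replicate 1 (adjusted p = 0.0611 and 0.103). Its change from 6 to 36 h (-1.23 ± 0.48, adjusted p = 0.0453) was not called without any 1 of 6 libraries, up to 0.158 without 36 h replicate 1.

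**Figure D5:**
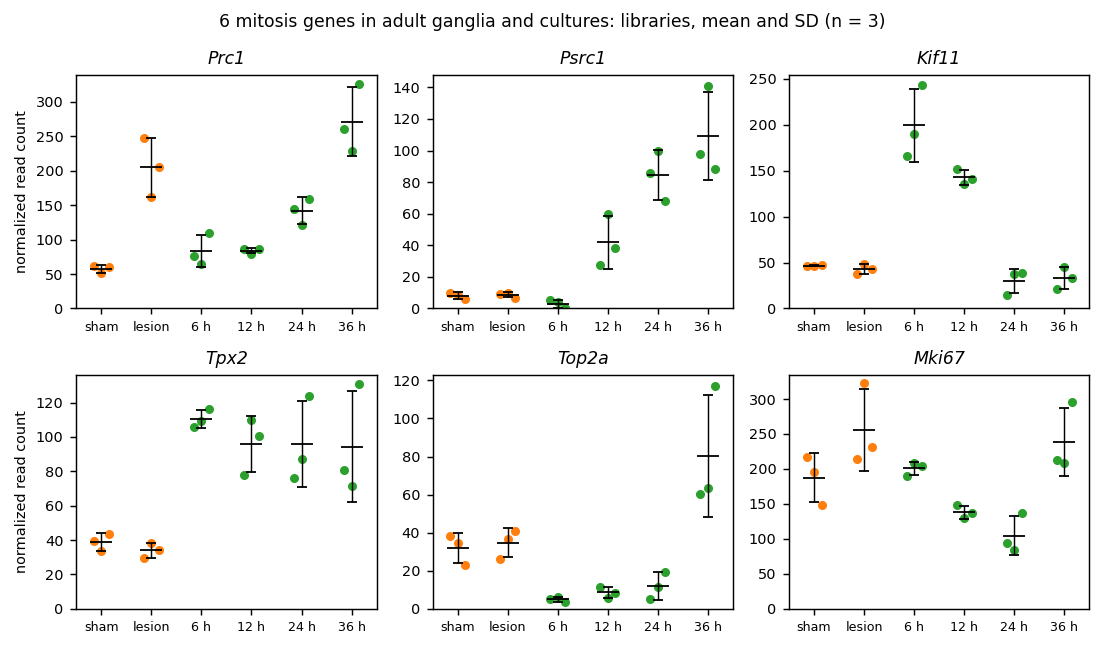
Normalized read counts of 6 mitosis genes in adult sham and lesioned ganglia and in culture at 6, 12, 24 and 36 h, with each library (points), the mean (line) and SD (bars, n = 3). Prc1 is higher after lesion and at 36 h, Psrc1 climbs from 6 h on, Kif11 is high at 6 and 12 h only, and the 3 Top2a values at 36 h (60.4 to 117) exceed all others shown.

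Other rises from 6 to 36 h were smaller in count. Incenp went from 67.5, 58.3 and 42.3 to 89.5, 105 and 133 (0.96 ± 0.22, adjusted p = 0.00205, limma) and Ccna2, the S-phase and G2 cyclin, from 79.9, 67.1 and 77.6 to 132, 136 and 180.0 (0.98 ± 0.21, adjusted p = 0.00109). Cenpf went from 13.1, 10.4 and 3.53 to 41.0, 21.7 and 67.4 (2.16 ± 0.51, adjusted p = 0.00249). In these 3 the groups were apart. The step of Incenp from 12 to 24 h (0.77 ± 0.22, adjusted p = 0.0346) was not called without any 1 of 5 libraries, up to 0.110 without 24 h replicate 3. Nusap1, a microtubule-bundling protein, fell in that step (-1.11 ± 0.28, adjusted p = 0.0178) and lost its call without 12 h replicate 3 (adjusted p = 0.0827), 24 h replicate 1 (adjusted p = 0.0587) or 24 h replicate 2 (adjusted p = 0.0873).

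The calls of 4 further genes rested on low counts. Plk1 (2.37), Ccnb1 (1.75), Kif20b (1.46) and Cdca8 (1.19) rose from 6 to 36 h, and Plk1 had 11.6, 5.50 and 0 at 6 h, 3.90, 7.31 and 6.83 at 12 h, 2.46, 8.79 and 8.10 at 24 h and 10.8, 40.3 and 22.2 at 36 h (adjusted p = 0.0258, limma), with overlap. Ccnb1 had 2.90, 3.30 and 3.53, 11.7, 3.41 and 4.78, 2.46, 3.08 and 7.29 and 10.8, 9.30 and 23.1 in the same order (adjusted p = 0.0293). Each of the 4 lost its call without single libraries. Ccnb1 reached 10 only in 12 h replicate 1 and in 36 h replicates 1 and 3, and without any of these it was not tested. With the filter at 30 Ccnb1, Plk1 and Cdca8 were not tested. The highest adjusted p was 0.135 for Plk1 (without 6 h replicate 3), 0.0706 for Ccnb1 (without 6 h replicate 1), 0.176 for Kif20b (without 6 h replicate 1) and 0.125 for Cdca8 (without 6 h replicate 1). In a fit of all 24 libraries, which shares their spread and also lets through genes that are high only in the embryo, 19 genes rose from 6 to 36 h. Of the 9 gained, 6 had stayed below the culture filter (Cdk1, Cdc25c, Cdc20, Kif4, Ndc80 and Nuf2), and the first 3 were also called in the culture libraries without a filter (adjusted p = 0.0296, 0.0410 and 0.0355). In the larger fit they included Cdk1 (adjusted p = 0.00289), which had 3.90, 5.36 and 5.46 at 12 h, 2.46, 3.52 and 6.48 at 24 h and 32.3, 6.20 and 26.8 at 36 h. Aurkb had 7.79, 0.975 and 3.42, 9.84, 2.64 and 1.62 and 11.9, 0 and 16.6 at these times and was not called.

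Genes tested without a call from 6 to 36 h changed by Hmmr (1.18), Spc25 (1.30), Ttk (1.55), Cenpe (0.80), Spc24 (0.76), Ccnb2 (0.43), Birc5 (0.40), Anln (0.55), Kif22 (0.43), Ect2 (0.20), Aurka (0.11) and Mki67 (0.23) on the positive side, and by Kif20a (-0.00), Mad2l1 (-0.11), Kif18a (-0.20), Bub1b (-0.23), Tpx2 (-0.28), Nusap1 (-0.31), Racgap1 (-0.40) and Kif15 (-0.41) on the negative side. Hmmr, a hyaluronan receptor that also binds spindle microtubules, was the nearest to the threshold (adjusted p = 0.0512, limma), with 7.99, 18.1 and 17.6 at 6 h and 29.1, 27.9 and 41.5 at 36 h and no overlap. It was called by edgeR (adjusted p = 0.0190), by DESeq2 (adjusted p = 0.0295), with a pseudocount of 4 (adjusted p = 0.0357), with TMM scaling (adjusted p = 0.0451), with all 24 libraries (adjusted p = 0.00701) and without 12 h or 24 h replicate 1 (adjusted p = 0.0341 and 0.0354). Spc25 was called by edgeR, by DESeq2 and without 12 h replicate 1 (adjusted p = 0.0278, 0.0422 and 0.0394), and Anln and Ttk in the fit of all 24 libraries (adjusted p = 0.0275 and 0.0479).

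By interval, 1 gene rose and 0 fell from 6 to 12 h (5.86% and 4.72% of all genes), 2 rose and 3 fell from 12 to 24 h (4.82% and 6.74%, with 14.9% and 15.6% apart between the groups), and 3 rose and 0 fell from 24 to 36 h (1.11% and 1.55%). From 24 to 36 h, 10 of the 32 tested genes lay higher without overlap and 0 lower, against 14% and 15.5% of all genes. Beside Top2a, Mki67 and Prc1 these were Plk1 (1.73), Ccnb1 (1.55), Hmmr (1.12), Ccna2 (0.54), Nusap1 (0.50), Anln (0.47) and Racgap1 (0.38). Plk1 and Ccnb1 passed the filter mainly through the 36 h libraries. The uncalled genes ranged from -0.76 (Bub1b) to 1.20 (Kif15) in the first interval, from -0.64 (Kif15) to 1.05 (Psrc1) in the second and from -0.96 (Kif15) to 1.73 (Plk1) in the third.

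Most of the DNA replication genes rose in culture. From 6 to 36 h 27 of 35 tested rose and 0 fell (median 1.46), led by Uhrf1 (4.19), which maintains DNA methylation behind the fork, and Rrm2 (2.72), a subunit of ribonucleotide reductase. Of 63 other mitosis genes 16 rose and 2 fell (median 0.29). Of all genes 25.3% rose and 25.3% fell over this span, so the share of rises in this list is near that of all genes. Espl1 (3.20), the protease separase, and Cenpt (1.79) had the largest rises, and Sgol2 (-1.48) and Zwint (-0.45) were the falls. The difference between these lists was not tested. Over the same span 5 of 10 neuron markers fell and 0 rose (sums 129759 to 150380.0 at 6 h and 79094 to 105306 at 36 h). Endothelial markers rose in 7 of 8 (2799.7 to 3553 and 4707 to 6324), fibroblast markers in 4 of 7 tested (2752 to 3551 and 6589 to 6956) and macrophage markers in 4 of 8 tested (233 to 293 and 459 to 524), with none at 0 in either group. Satellite glia markers rose in 5 and fell in 2 of 8. The part of these cells in the changes of the mitosis genes was not tested.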

How the data were processed

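Per the labels' protocols, sorted cells were lysed and TruSeq V2 libraries prepared using 10 ng of total RNA, and it is not stated if this held for embryonic and operated ganglia. The submitters' processing notes name TopHat and mm10. Which annotation, counting tool and strand setting were used is not stated there. The deposited signal values are read counts that the authors divided by 1 factor per library, read from the values: 339603 values of up to 1000 reads, 100% of those checked, were whole within 0.1 read. The design had foreseen normalized values, so limma 3.58.1 (R 4.3.3) was the test, on log2(value + 1) with eBayes trend and robust. The filter asked for a value of 10 or more in 3 or more of the libraries fitted. Adjustment was by Benjamini-Hochberg across every gene fitted, and calls were made below 0.05. The embryonic, operated and culture libraries were each fitted alone, and sham against E17.5 or 6 h with all 24. A fold on this scale understates changes of low genes. Alternatives were edgeR 4.0.16 and DESeq2 1.42.0 on the recovered reads (on which they called 42 mitosis genes each from E12.5 to E17.5). Further ones were pseudocounts of 0.5 and 4, no filter, a filter at 30, TMM scaling and the other set of libraries. The stretch of title numbers was also fitted as a covariate for lesion against sham, and each library was left out in turn. Setting replaced values to missing was added after seeing the data.

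The genes and lists were chosen with earlier results of these data known. Every mitosis gene is accounted for. Values in every library are given for Cdk1, Ccnb1, Plk1, Aurkb, Top2a and Mki67 and for the 5 largest called rises and falls of a comparison with a group mean of at least 50. Other lists give up to 2 rises and 2 falls. Genes shown beyond this rule were chosen after their values were seen. Exon lengths and overlaps came from GENCODE M21, promoters from RefSeq. Scripts were tested on simulated data.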

Additional observations from a re-analysis of the deposited data

How the results depend on the processing

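The counts of called mitosis genes kept within 1.5 times of the reported ones under edgeR, DESeq2, other pseudocounts, other filters, TMM scaling and the other sets of libraries, with these exceptions. Without a filter, 1 gene (Ttk) fell after lesion (reported 0), 1 rose from 12 to 24 h (reported 2) and 1 fell from 6 to 36 h (reported 2). With TMM scaling 1 fell from 6 to 36 h. In a fit of all 24 libraries, where both the spread and the genes passing the filter change, 19 rose from 6 to 36 h (reported 10) and 23 differed among the 4 culture times (reported 11). Leaving out 1 library at a time gave 42 to 43 falls from E12.5 to E17.5, 3 to 3 rises after lesion, 1 to 1 rise from 6 to 12 h, 0 to 3 rises and 1 to 3 falls from 12 to 24 h, 2 to 3 rises from 24 to 36 h, 6 to 11 rises and 1 to 2 falls from 6 to 36 h and 9 to 14 genes in the F test. It gave 42 to 43 falls from E17.5 to sham, and 3 to 4 rises and 6 to 9 falls from sham to 6 h.

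For genes named with values, 894 alternative results kept their side of the threshold, 41 lost it, 8 gained it and 17 changed sign, all 17 in genes that were not called. With edgeR and DESeq2 these were Plk1 from 6 to 12 h (-0.11 and -0.0933), from 12 to 24 h (0.18 and 0.12) and from sham to 6 h (0.20 and 0.15), and Plk1 from 12 to 24 h gave 0.0158 with a pseudocount of 4 and 0.00449 with TMM. Leaving out 1 library moved Plk1 between -0.41 and 1.42 from 6 to 12 h, -0.28 and 0.47 from 12 to 24 h and -1.59 and 0.24 from sham to 6 h. It moved Top2a between -0.0870 and 0.31 after lesion and -0.11 and 0.78 from 12 to 24 h, and Mki67 between -0.0391 and 0.23 from sham to 6 h. Kif22 was not tested after lesion with the filter at 30. The cause of these differences was not tested. Low adult levels kept 12 genes after lesion and 11 in culture under the filter. The replicate numbers were given in accession order and pair nothing. The stretches of title numbers of the operated ganglia, each with sham and lesion libraries, were fitted as a covariate. This gave 4 rises after lesion (reported 3), with Mki67 gained.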

Other observations

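Genes that brake the cell cycle were called in both directions. After lesion 6 of 14 Cdk inhibitors and other brakes rose and 1 fell (limma, threshold 0.05), where 20.9% of all genes rose and 20.2% fell, with Gadd45a, a stress-induced growth arrest gene, at 1919 ± 379 normalized counts after lesion and 358 ± 25.3 after sham surgery (SD, n = 3; log2 2.40 ± 0.12), and Cdkn1a, the Cdk inhibitor p21, at 5233 ± 1047 and 1442 ± 81.0 (1.84 ± 0.12). Cdkn2d, an inhibitor of Cdk4 and Cdk6, fell (-0.51 ± 0.08). From 6 to 36 h in culture 2 of 13 brakes rose and 2 fell (25.3% of all genes in each direction). Cdkn1a rose from 3124 ± 561 at 6 h to 6997 ± 195 at 36 h (1.18 ± 0.13), and Trp53, which encodes p53, from 195 ± 25.9 to 402 ± 71.3 (1.03 ± 0.17), while Cdkn2d fell from 865 ± 91.7 to 505 ± 26.3 (-0.77 ± 0.15) and Wee1, a kinase that holds Cdk1 inactive, from 159 ± 14.5 to 99.1 ± 13.5 (-0.68 ± 0.18). From E12.5 to E17.5 4 of 13 brakes rose, led by Cdkn2b (3.20 ± 0.42) and Cdkn1a (2.40 ± 0.28). Of all genes 31.1% rose, so the share of rises is that of all genes. Falls were more frequent, with 8 of 13 against 31.9% of all genes. The largest were in the Cdk inhibitor Cdkn1c (-3.88 ± 0.81) and in Btg2 (-3.02 ± 0.24). Cdkn1c had 9267 ± 872 at E12.5 and 1044 ± 1267 at E17.5.

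G1 cyclins and their kinases rose in culture in 7 of 9 cases from 6 to 36 h and fell in 0, beside the same 25.3% of all genes. Ccnd1, cyclin D1, went from 2052 ± 252 to 9620.0 ± 703 (2.23 ± 0.12), above its 889 ± 118 in sham ganglia, and Ccnd3 from 135 ± 38.8 to 560.4 ± 64.5 (2.08 ± 0.27). Among the regulators that read the CHR and CCAAT elements or act with them, Rbl1, the pocket protein p107, rose from 32.0 ± 6.69 to 157 ± 23.8 (2.27 ± 0.24) and Foxm1, an activator of mitosis genes, from 48.6 ± 15.3 to 116 ± 4.00 (1.30 ± 0.26), while Nfyb, an NF-Y subunit, fell from 780 ± 132 to 345 ± 33.1 (-1.16 ± 0.15). From E17.5 to sham ganglia Foxm1 fell from 326 ± 32.5 to 37.6 ± 8.85 (-3.10 ± 0.22) and E2f1, an activator of replication genes, rose from 150 ± 12.2 to 364 ± 43.4 (1.26 ± 0.17).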
